A study of Homo sapiens with 16 samples.

Results

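Downstream-of-gene transcripts (DoGs) of HEK293 cells were measured in the SERIPH 2nd-step fraction, with and without DoG-inducing treatment. These are 4 of the 16 libraries of the series, chosen by their labels alone, with 2 biological replicates in each condition. HEK293 is a line derived from human embryonic kidney. Control cells were not treated, and the other cells were kept for 9 h in 200 mM sorbitol, a hyperosmotic agent, with 100 µg/mL cycloheximide, which blocks translation (hereafter stress). The effects of sorbitol and of cycloheximide cannot be told apart, since no library received one of them alone. SERIPH is a phenol-based extraction in which the aqueous phase, the 1st-step fraction, is taken off first. The interphase that remains is washed and then extracted with heating, which gives the 2nd-step fraction. The comparison asks which readthrough transcripts differed between the 2 conditions in RNA held back at the interphase. The 4 libraries listed 6192 DoG regions from 3214 genes, of 3505 genes in the whole series. FPKM, the read density per length and library size, was available for 3139 DoGs in every library.

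Transcription of most protein-coding genes ends after the nascent RNA is cut a short way behind a poly(A) signal, and RNA polymerase then leaves the template further downstream. Replication-dependent histone genes use a stem-loop at the end of the message in place of a poly(A) signal. Under osmotic stress, cleavage and termination become inefficient at many genes, and the polymerase goes on into downstream sequence. The resulting DoGs stay in the nucleus, attached to the RNA of the gene they start from.

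The sequences at the gene ends show where readthrough begins. They are given for DoGs with the largest rise or fall and for the longest DoGs, and were read from GRCh38 (hg38) on the strand of the gene, at the gene end used in the deposited lists. Each window holds the last AATAAA or ATTAAA within 50 bases of the gene end, in capitals. The first of these DoGs rose under stress, the next 3 fell, and the last 3 were among the longest or most extended.
SECISBP2, chr9:89363606-89363633, plus strand: caatggaaagccAATAAAacccaaaccc
HCCS-DT, chrX:10847547-10847576, minus strand: atttgtgccttcATTAAAcaaaatgttttg
NEIL3, chr4:177362895-177362924, plus strand: atttcttgttttATTAAAtaataagaaata
ATIC, chr2:215349725-215349754, plus strand: actttttaaaaaAATAAAacagtatctctt
RPS29, chr14:49571000-49571029, minus strand: gcatgtacccaaAATAAAcattttgagttc
MORF4L1, chr15:78903043-78903072, plus strand: tattagtagtacAATAAAgagtaatgttaa
DHX15, chr4:24517441-24517468, minus strand: cttgttataacaATTAAAcagttcgtat

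Neither hexamer was found in this window at the gene ends of RCN3, DDX39B, RAB3A, HNRNPD and HNRNPC. AATAAA or ATTAAA was present, on the gene's strand, at 66.1% of DoGs called higher under stress (n = 2340), 67.1% of those not called (n = 429) and 61.5% of those called lower (n = 366). Among 19970 protein-coding gene ends of GENCODE v44 the share was 72.0%. Here and below, these sets are unlike. The DoG gene ends come from GENCODE v49, and lncRNA genes make up 9.40% of DoGs called higher, 3.26% of those not called and 6.56% of those called lower. The histone windows below hold the histone stem-loop, in capitals, within the last 100 bases of the gene. It was searched on the gene's strand, with either pyrimidine at 2 places of the 5′ arm and either purine at 2 places of the 3′ arm.
H4C4, chr6:26188710-26188737, minus strand: aaccaacGGCCCTTTTCAGGGCCaccta
H4C5, chr6:26204994-26205021, plus strand: aatcaaaGGCCCTTTTCAGGGCCgccca
H2BC8, chr6:26216211-26216240, minus strand: actcaaaGGCTCTTTTCAGAGCCactcaag
H2BC17, chr6:27893863-27893891, plus strand: atccaaaGGCTCTTTTCAGAGCCactcac

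Another set shows how the readthrough itself begins. These are the first 100 bases of 1 DoG that rose (RCN3) and of 2 that fell (NEIL3 and ATIC), with runs of TTTTT and any TGTGT in capitals.
RCN3, chr19:49546963-49547062, plus strand: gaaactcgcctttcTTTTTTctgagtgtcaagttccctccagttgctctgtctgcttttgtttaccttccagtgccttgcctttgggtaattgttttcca
NEIL3, chr4:177362937-177363036, plus strand: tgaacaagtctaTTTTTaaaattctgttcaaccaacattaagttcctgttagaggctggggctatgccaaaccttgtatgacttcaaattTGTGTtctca
ATIC, chr2:215349774-215349873, plus strand: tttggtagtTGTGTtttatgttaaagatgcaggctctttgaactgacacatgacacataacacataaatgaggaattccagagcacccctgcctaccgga

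TGTGT lay in the first 100 bases of 22.4% of the DoGs called higher, 20.8% of those called lower and 23.05% of all protein-coding gene ends. TTTTT lay there in 29.7%, 32.5% and 30.5%. These shares are given as a description of letters in the window. The first 10 kb of the DoGs called higher had a median GC content of 46.8%, against 42.3% for those called lower and 45.2% for all protein-coding gene ends. The genes of DoGs called lower were longer, with a median of 50.4 kb against 28.7 kb for DoGs called higher. The next gene on the same strand lay at a median distance of 39.0 kb and 40.6 kb, respectively.

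Many more genes produced a DoG under stress. The control libraries listed 689 and 667 DoG-producing genes, and the stress libraries listed 2387 and 2449. Both stress libraries lay above both control libraries, and the means (678 ± 15.6 and 2418 ± 43.8, SD, n = 2) differed 3.57-fold. The two-sided exact permutation test over the 4 libraries gave p = 0.33, which is the lowest that 4 libraries in 2 groups can reach. The listed DoGs were also longer. Their median length was 10 kb, the minimum that the authors set, in both control libraries and 30 and 35 kb in the stress libraries. Of the control DoGs, 50.1% and 51.9% had exactly this minimum length, against 18.7% and 15.6% under stress. DoGs of at least 100 kb numbered 20 in each control library and 474 and 558 under stress. Together the regions covered 15.2 and 14.7 Mb of strand-specific sequence in control cells and 165.6 and 190.4 Mb under stress, so that the covered length rose 11.9-fold while the number of genes rose 3.57-fold.

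**Figure D1:**
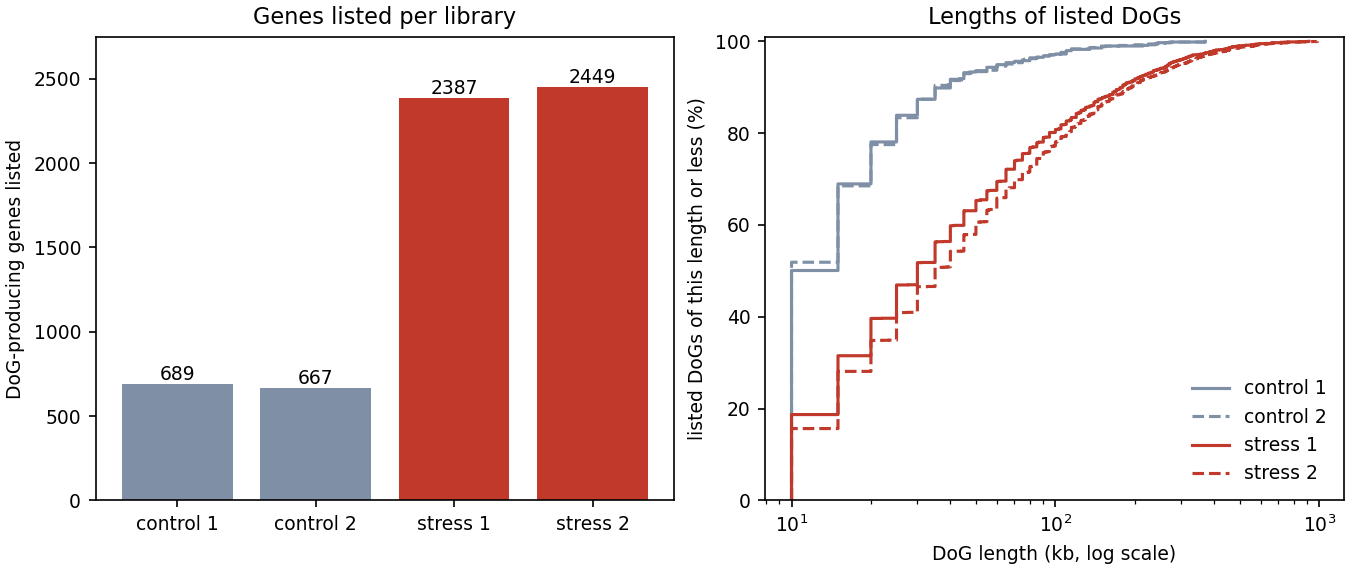
DoG-producing genes listed in each SERIPH 2nd-step library (left, bars are counts) and the cumulative share of listed DoGs by length in kb on a log scale (right, 1 line per library). The stress libraries listed 2387 and 2449 genes against 689 and 667 in control, and their length curves lie to the right of both control curves.

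The genes listed under the 2 conditions were mostly not the same. Both control libraries listed 595 genes and both stress libraries 2031. All 4 libraries listed 222 genes, which is 37.3% of the reproducible control genes and 10.9% of the reproducible stress genes. A further 1752 genes were listed in both stress libraries and in neither control library, and 316 in both control libraries and in neither stress library. Of the genes found in either replicate, both replicates listed 72.4% under stress and 78.2% in control.

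FPKM over the DoGs rose with the lists. The median over 3139 DoGs was 0.10 in both control libraries and 0.86 and 0.84 in the stress libraries, and the number of DoGs listed at 0 fell from 288 and 246 to 13 and 3. The test was limma on log2(FPKM + 0.1), and the added 0.1 makes changes of low values look smaller. The call required a log2 difference of at least 1 and a Benjamini-Hochberg adjusted p below 0.05. Under stress 2343 DoGs were called higher (74.6% of those tested) and 366 lower (11.7%). The median log2 fold change was 2.38, with quartiles of 0.96 and 3.07. In every called DoG both stress libraries lay on the same side of both control libraries. Without regard to the threshold, the groups did not overlap, with stress above, in 80.8% of DoGs and, with stress below, in 16.5%. Each DoG that changed at least 2-fold also passed the adjusted p-value (2709 of 2709), so the fold threshold alone set these counts. Since FPKM is scaled within each library, more DoG RNA and less of other RNA cannot be told apart. When each library was centred on its median DoG, the median log2 fold change was 0.13, and 581 DoGs were called higher and 886 lower. The share of higher calls among all calls moved from 86.5% to 39.6%. The changes below are on the deposited scale.

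The DoGs tested entered the table because at least 1 library of the series listed them, so a DoG listed only under stress had to be high there. Of the 1734 DoGs with FPKM listed in both stress libraries and in no control library, 1634 were called higher and 4 lower. Their median FPKM over libraries was 0.055 in control and 1.07 under stress. Of the 302 listed in both control libraries and in no stress library, 0 were called higher and 253 lower, and their median FPKM was 0.88 in control and 0.22 under stress. The 220 DoGs listed in all 4 libraries were listed in both conditions, but their FPKM is taken over 1 region, mostly the longest listed. Where a DoG lengthened under stress, its control FPKM is thus averaged over sequence past the control region. Among the 220, 133 were called higher, 9 lower and 78 neither, and the median log2 fold change was 1.45. The median was 1.68 for the 189 that lengthened and -0.28 for the 16 of equal mean length. Restricting the test to the 572 DoGs listed in both control libraries turned the median to -0.90, with 136 called higher and 272 lower.

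**Figure D2:**
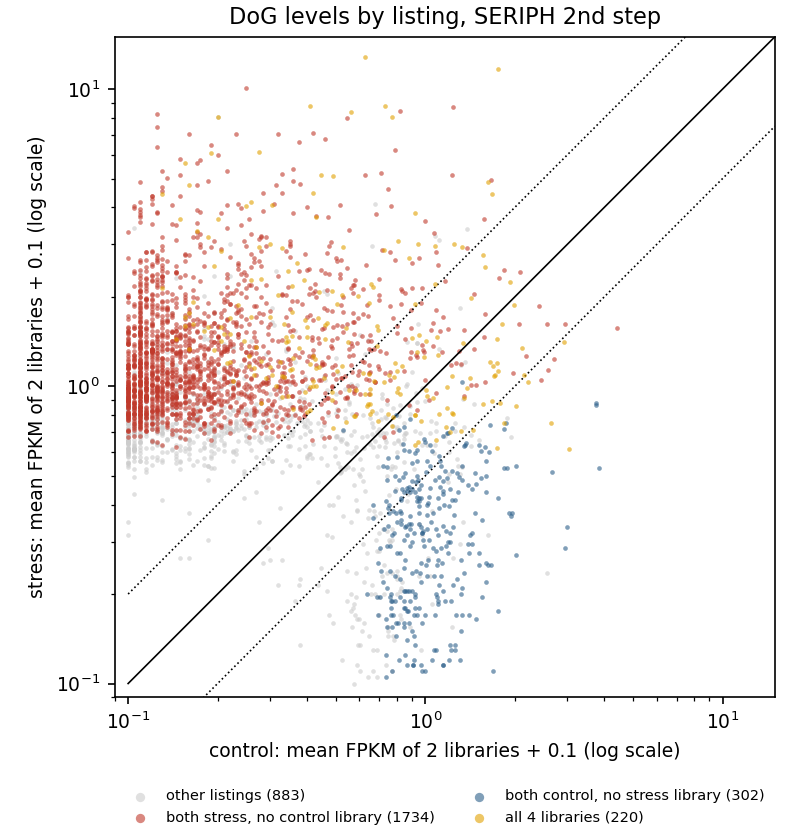
Mean FPKM + 0.1 of each DoG in the 2 control libraries (x axis) and the 2 stress libraries (y axis), both on log scales, coloured by the libraries that listed it. The solid line marks equal values and the dotted lines a 2-fold difference. The 1734 DoGs listed only under stress lie mostly above the lines, the 302 listed only in control below them, and the 220 listed in all 4 libraries on both sides.

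The highest fold changes, computed with a pseudocount of 0.1, belonged to DoGs that were near 0 in control cells. Their order depends on the pseudocount: RCC1 and ENSG00000170846 ranked above SECISBP2 with 1, and H4C5, KMT2E-AS1 and RAB3A did with 0.01. The DoG of SECISBP2, which helps insert selenocysteine into proteins, had 0.03 and 0.02 FPKM in the control libraries and 7.63 and 8.61 under stress. Its log2 fold change was 6.04 ± 0.08 (SE; limma adjusted p = 3.59e-14). The stress libraries listed this DoG over 135 and 140 kb (chr9:89363634-89498633 and chr9:89363634-89503633), with no other gene on the same strand. PYCARD-AS1, an antisense lncRNA, had 0.02 and 0.03 FPKM in control and 7.57 and 7.14 under stress, a log2 fold change of 5.90 ± 0.10. The DoG of RCN3, a calcium-binding protein of the endoplasmic reticulum, had 0.03 and 0.02 FPKM in control and 6.38 and 6.17 under stress. For DDX39B, an RNA helicase of splicing and mRNA export, the values were 0.06 in both control libraries and 7.02 and 6.91 under stress. The values for RAB3A, a small GTPase of secretory vesicles, were 0.01 in both control libraries and 4.86 and 4.64 under stress. In all 5, the lowest stress library was far above the highest control library, which follows from their choice by fold change. The longest listed regions of PYCARD-AS1, RCN3, DDX39B and RAB3A hold annotated genes on the same strand (TRIM72, ITGAM and 5 further protein-coding genes for PYCARD-AS1, PRRG2 for RCN3, IL12RB1 for RAB3A and no protein-coding gene for DDX39B), and RNA started at those genes cannot be told apart from readthrough.

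The largest falls belonged to DoGs listed in control cells alone. HCCS-DT, a lncRNA transcribed divergently from the gene for holocytochrome c synthase, had a DoG of 10 kb (chrX:10837543-10847542) with 1.55 and 1.64 FPKM in control and 0.01 in both stress libraries. Its log2 fold change was -3.95 ± 0.15 (limma adjusted p = 4.65e-11). The DoG of NEIL3, a DNA glycosylase, had 1.61 and 1.71 FPKM in control and 0.06 and 0.09 under stress. The DoG of ATIC, an enzyme of purine synthesis, had 1.10 and 1.11 in control and 0.01 and 0.03 under stress. These 3 regions hold no other gene on their strand. The wide gap between the groups follows from the choice by fold change. ZFP14, a zinc finger gene, fell from 2.88 and 2.84 FPKM to 0.19 and 0.18, and the pseudogene BMS1P1 from 1.21 and 1.20 to 0.03 and 0.01. BMS1P1 has close copies in the genome, so its values are uncertain even though only uniquely mapped reads were kept. Of the 316 genes listed only in both control libraries, the regions of 18 met the stress region of another gene on the same strand.

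**Figure D3:**
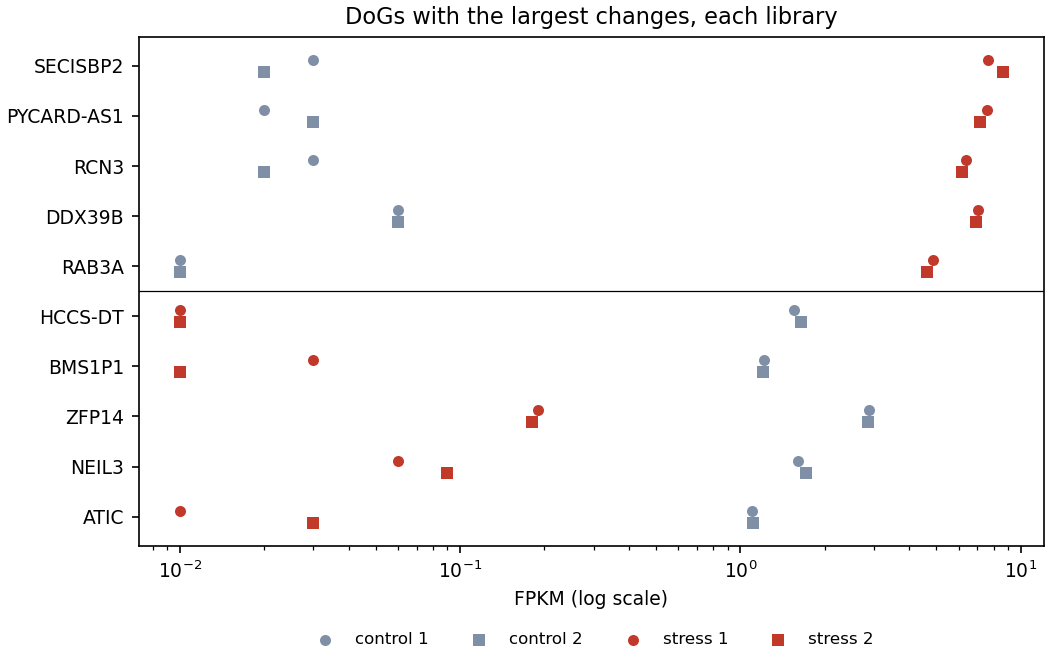
FPKM on a log scale in each of the 4 libraries for the 5 DoGs with the highest (above the line) and the 5 with the lowest (below the line) log2 fold change (pseudocount 0.1), among called DoGs listed in both libraries of the higher condition. Replicates lie close together, and SECISBP2 runs from 0.02 to 8.61 FPKM and HCCS-DT from 1.64 to 0.01. The DoGs were chosen by fold change, so the gap between conditions follows from the choice.

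By level, the leading DoGs among those listed in both stress libraries were those of RCC1, ZNF207 and ENSG00000170846. RCC1, the nucleotide exchange factor of Ran, had 0.48 and 0.57 FPKM in control and 13.17 and 12.31 under stress, and its listed region went from 10 kb in both control libraries to 101.1 kb in both stress libraries. ZNF207, a zinc finger protein of the mitotic spindle, had 1.6 and 1.7 FPKM in control and 11.71 and 11.51 under stress. ENSG00000170846 had 0.16 and 0.14 FPKM in control and 10.25 and 9.72 under stress. The regions of all 3 hold other genes on the same strand, among them TRNAU1AP, PSMD11 and S100P. Among DoGs listed in both control libraries the highest control levels were those of AMZ2P1 (3.54 and 3.95 FPKM), POLR2J3 (3.51 and 3.81) and POLR2J2 (3.52 and 3.76), which fell to between 0.40 and 0.83 FPKM under stress. AMZ2P1 is a pseudogene and POLR2J2 and POLR2J3 are near-identical paralogs, so these 3 are uncertain. Their regions also hold genes on the same strand, among them LRRC37A3 for AMZ2P1, UPK3BL2 for POLR2J3 and UPK3BL1 for POLR2J2. RNA started at such genes cannot be told apart from readthrough.

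Stress DoGs reached far into downstream sequence. The longest was that of RPS29, a protein of the small ribosomal subunit, with 915 and 985 kb in the stress libraries and no listing in control (chr14:48655984-49570983 and chr14:48585984-49570983). HNRNPD, which binds AU-rich RNA, had a DoG of 10 kb in both control libraries and of 855 and 905 kb under stress. MORF4L1, a chromodomain protein, went from 15 and 20 kb to 840.2 kb in both stress libraries, and HAPSTR1 from 25 kb in both control libraries to 760 kb in both. SYNCRIP, an hnRNP, already had 110 and 105 kb in control and reached 715 and 800 kb. The region of RPS29 held 1 annotated gene on its strand and no protein-coding one. That of HNRNPD held RASGEF1B, and that of MORF4L1 held ANKRD34C, TMED3 and MINAR1. The stress regions of HAPSTR1 held 5 genes on the strand, none protein-coding, and those of SYNCRIP held SNX14 and ENSG00000271793. The control regions of SYNCRIP already held 2 genes on the strand. RNA started at such genes cannot be told apart from readthrough.

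The 222 genes listed in all 4 libraries allowed length to be compared within genes. Their median length was 12.5 kb in control and 61.25 kb under stress, and the median of the per-gene ratios was 4.27, with quartiles of 1.53 and 10.1. Of these DoGs, 190 were longer under stress, 15 shorter and 17 equal. In 170 (76.6%) both stress regions were longer than both control regions, and in 8 both were shorter. The geometric mean length per library was 15.2 and 14.7 kb in control and 56.5 and 65.5 kb under stress, and the exact permutation test again gave its lowest possible p of 0.33. In 141 of the 222 at least 1 region held another gene on the same strand. In the other 81 the median ratio was 2.20, below the ratio over all 222. A longer region is more likely to meet a gene, so this split itself favours short stress regions. The lower ratio therefore does not show an effect of downstream genes.

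The largest length ratios belonged to HNRNPD, HNRNPC and DHX15, which all make RNA-binding proteins or helicases of RNA processing. HNRNPC went from 10 kb in both control libraries to 579 and 564 kb, over 13 and 12 genes on the same strand. DHX15, a helicase that takes spliceosomes apart, went from 10 kb to 445 and 560 kb, with 1 lncRNA gene on the strand. A few DoGs shortened. UCHL3, a deubiquitinating enzyme, went from 115 kb in both control libraries to 10 kb in both stress libraries, with 1.72 and 1.77 FPKM in control and 0.65 and 0.66 under stress. ECD, a cell cycle regulator, went from 110 kb in both to 10 and 15 kb. ARHGAP11B, from 150 and 145 kb to 15 kb in both, is a partial copy of ARHGAP11A and is uncertain. The control regions of UCHL3, ECD and ARHGAP11B each held 3 other genes on the same strand. RNA started at those genes cannot be told apart from readthrough.

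Level and length moved together. FPKM is given over a single region per gene, which for 98.1% of the DoGs was as long as the longest listed region, so a short control DoG is averaged over a long stress region. HNRNPD, for instance, had 0.06 FPKM in both control libraries, which listed it over 10 kb, and 4.61 and 4.73 under stress. Among DoGs with FPKM listed in all 4 libraries, 131 of the 189 that lengthened were called higher and 1 lower (median log2 fold change 1.68). Of the 16 with equal mean length, 2 were called higher, 1 lower and 13 neither (median -0.28). Of the 15 that shortened, 0 were called higher and 7 lower. Length and FPKM come from the same reads, so this is a description and was not tested. Over all DoGs, 53.5% of those with an FPKM region of 10 kb (n = 673) were called higher and 23.2% lower, against 91.6% and 2.95% of those with at least 100 kb (n = 610).

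**Figure D4:**
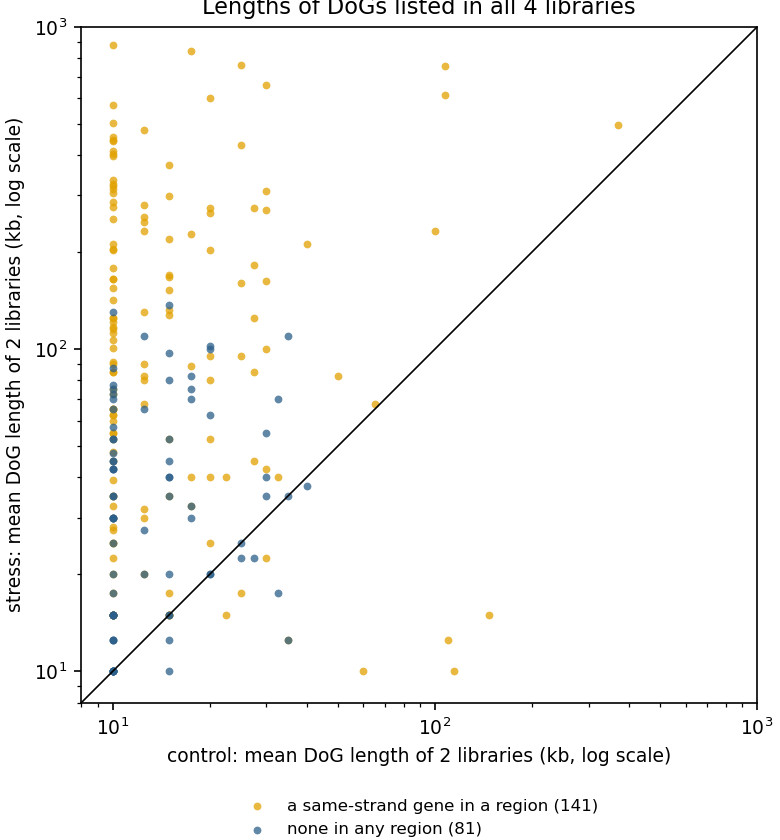
Mean DoG length in kb over the 2 control libraries (x axis) and the 2 stress libraries (y axis), on log scales, for the 222 genes listed in all 4 libraries. Yellow points (141) have another gene on the same strand in at least 1 region and blue points (81) have none, and the line marks equal length. Most points lie above the line, the blue ones closer to it than the yellow ones that reach the greatest lengths. Longer regions are more likely to meet a gene, so the colours are not independent of length.

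In all, 14 groups of genes were set beside the DoGs as a whole, for which the share called higher was 74.6%, the share called lower 11.7% and the median log2 fold change 2.38. The stress regions of many examples named below hold other genes on the same strand. Those of TOMM20 hold 8, of HNRNPA2B1 4 and of PPP1R15B 4 and 3, whereas that of H4C5 holds 0. RNA started at such genes cannot be told apart from readthrough. Histone genes had the highest median. All 27 histone DoGs with FPKM were called higher, with a median log2 fold change of 3.63 on the deposited scale, and after centring 19 were called higher and 1, H4C16, lower. Their stress FPKM lay between 0.49 and 7.09 and no control value exceeded 0.69. H4C5 had 0 and 0.01 FPKM in control and 3.94 and 3.97 under stress, and H2BC18 had 0.01 in both control libraries and 3.90 and 4.22 under stress. The lowest member was H4C16, with 0.21 and 0.18 against 0.53 and 0.49. Of the 27 genes, 17 lie on chromosome 6, and 9 of those end in this stem-loop. Among protein-coding genes as a whole 41 of 19970 (0.205%) do. Histone DoGs were short, with a median stress length of 20 kb against 40 kb over all genes, and 25 of them were listed in both stress libraries.

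DoGs of stress response genes and of splicing genes were mostly called higher. Of 23 stress response genes with FPKM, 21 were called higher (91.3%, against 74.6% of all DoGs) and 0 lower (median 2.78), and after centring 5 and 3. PPP1R15B, a regulatory subunit of the phosphatase for the translation factor eIF2α, had 0.08 and 0.07 FPKM in control and 3.66 and 3.85 under stress, and IER5, an immediate early gene, had 0.02 and 0.03 against 2.26 and 2.30. The heat shock transcription factors HSF1 and HSF2 did not pass, with log2 fold changes of 0.64 and -0.50. HSF1 turned to -1.61 after centring. Of 48 genes of splicing and RNA helicases, 41 were called higher and 0 lower (median 2.64), and after centring 18 and 8. HNRNPA2B1, a regulator of splicing, had 0.03 in both control libraries and 5.02 and 5.35 under stress, over 625 and 720 kb. DDX46, a spliceosomal helicase, had 1.87 and 2.24 FPKM in control and 1.08 and 0.90 under stress and did not reach the fold threshold.

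DoGs also arose from a list of genes for 3′ end processing and termination, which takes in a polymerase subunit and a cap-binding protein. Of 24 genes of 3′ end processing and termination, 22 were called higher and 1 lower. Their median was 2.18 and turned to -0.06 after centring, when 5 were called higher and 5 lower. INTS6, a subunit of the Integrator complex, had 0.03 and 0.02 FPKM in control and 3.71 and 3.82 under stress. CPSF1, a subunit of the complex that binds the poly(A) signal, had 0.05 and 0.10 against 2.38 and 1.94. The exception was POLR2D, a subunit of RNA polymerase II, which fell from 2.21 and 2.49 FPKM to 0.97 and 0.93 although only the stress libraries listed it, over 115 and 30 kb. NCBP1, of the nuclear cap-binding complex, had 0.73 and 0.63 against 0.66 and 0.83, so its groups overlapped.

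Of 71 ribosomal protein and translation factor genes, 61 were called higher and 3 lower (median 2.67), and after centring 23 and 11. EIF5A, a translation factor, had 0.08 and 0.12 FPKM in control and 5.95 and 5.81 under stress. RPL27A, of the large ribosomal subunit, had 0.02 and 0.01 against 2.64 and 2.81. RPL39L, a paralog of RPL39, fell from 0.58 and 0.37 to 0 in both stress libraries. Of 32 chromatin regulators, 29 were called higher and 1, PHF6, lower (median 2.46), and after centring 9 and 3. CHD2, a chromatin remodeller, had 0.02 in both control libraries and 3.32 and 3.50 under stress. Of 38 SLC solute carriers, 31 were called higher (81.6%) and 5 lower (13.2%, median 2.74), near the shares over all DoGs, and after centring 8 and 9. Of 51 ubiquitin and proteasome genes, 39 were called higher (76.5%, near the share over all DoGs) and 4 lower (median 2.12), and after centring 13 and 14 (median -0.13). USP11, a deubiquitinating enzyme, had 0.04 and 0.06 FPKM in control and 5.82 and 5.58 under stress, over regions that hold 3 other genes on the same strand.

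The 3 lowest medians belonged to zinc finger, mitochondrial and membrane trafficking genes. Of 67 ZNF zinc finger genes, 39 were called higher and 11 lower (median 1.78). Of 46 genes of mitochondrial respiration, ribosome and import, 27 were called higher and 8 lower (median 1.51). Of 41 membrane trafficking genes, 31 were called higher (75.6%, near the share over all DoGs) and 8 lower (median 1.6). After centring these medians turned to -0.46, -0.73 and -0.65, with 7 higher and 30 lower, 5 and 21, and 5 and 16, respectively. COX5A, a subunit of cytochrome c oxidase, fell from 1.07 and 1.29 FPKM to 0.15 and 0.10, whereas TOMM20, a receptor of mitochondrial import, rose from 0.03 and 0.02 to 2.60 and 2.73. RAB4A, an endosomal GTPase, fell from 1.10 and 1.03 to 0.08 and 0.10, and ZNF680 from 1.25 in both control libraries to 0.16 and 0.11. Both control libraries listed 20 of the zinc finger genes, 13 of the mitochondrial ones and 6 of the membrane trafficking ones. The control medians of the 3 groups were 0.28, 0.29 and 0.19 FPKM, against 0.11 over all DoGs, and their part in the lower medians was not tested.

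Noncoding genes produced DoGs too. Of 123 antisense lncRNAs, 110 were called higher and 8 lower (median 2.74), and after centring 24 and 14. KMT2E-AS1 had 0.01 and 0 FPKM in control and 3.84 and 3.91 under stress, while CD200R1L-AS1 fell from 1.37 and 1.40 to 0.06 and 0.07. Of 32 divergent lncRNAs, 26 were called higher (81.2%) and 4 lower (12.5%, median 2.62), near the shares over all DoGs, and after centring 5 and 7. MVP-DT, one of these, had 0.04 in both control libraries against 3.52 and 3.31 under stress. Of 15 lncRNAs that host snoRNAs or miRNAs, 14 were called higher and 1, MIR4713HG, lower (median 2.79), and after centring 3 and 1. SNHG29, a snoRNA host, had 0.02 in both control libraries and 1.92 and 1.93 under stress. The libraries were stranded, so reads on the other strand were counted apart.

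**Figure D5:**
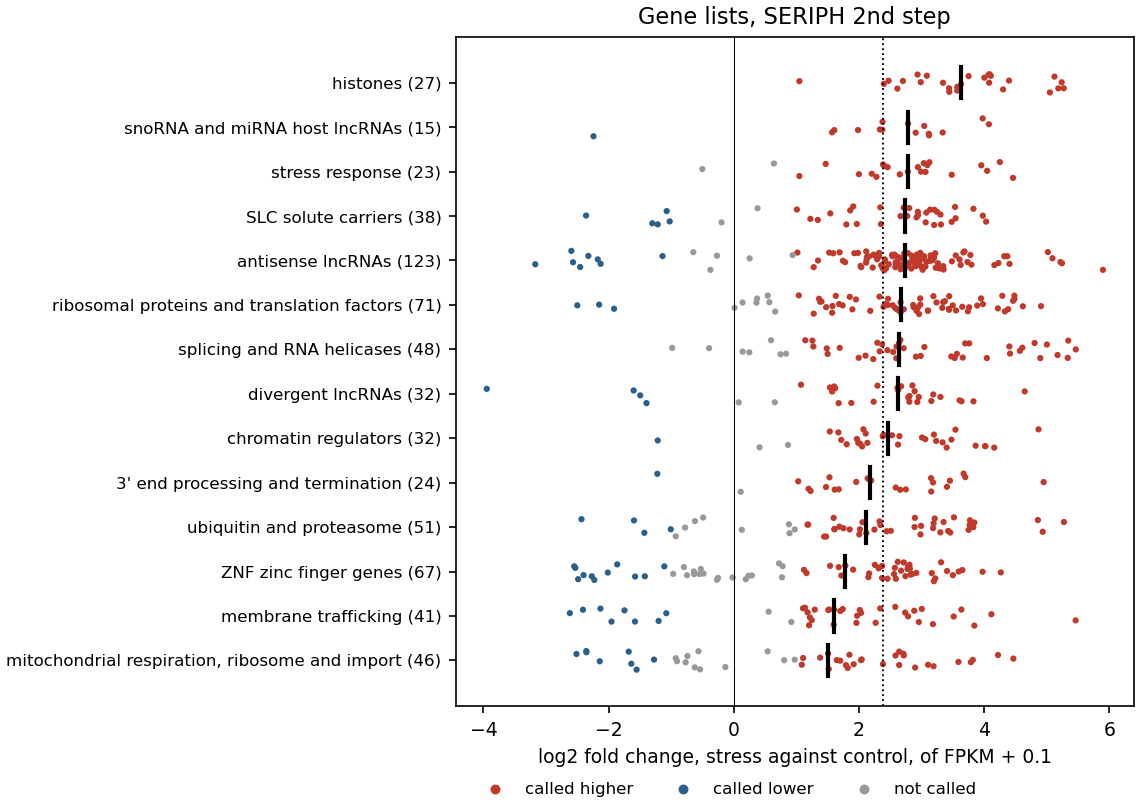
Log2 fold change of FPKM + 0.1, stress against control, for each DoG (points) of 14 gene lists, with the number of DoGs in brackets. Black bars are list medians and the dotted line is the median over all 3139 DoGs, 2.38. Histones lie furthest to the right with a median of 3.63, and the mitochondrial list furthest to the left with 1.51.

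For most DoGs the log2 fold change under stress was higher at the interphase than in the aqueous phase of the same extraction. Tested as an interaction in limma, the signed log2 fold change was called higher in the 2nd-step than in the 1st-step fraction for 2288 DoGs (72.9%) and lower for 132 (4.21%), where lower includes deeper falls. In the 1st-step fraction itself 21.8% of the DoGs were called higher and 10.6% lower. The DoGs tested had to be listed in at least 1 library of the series. Of these, 1734 were listed in both 2nd-step stress libraries and in no 2nd-step control library. The choice of DoGs and regions thus leans toward the 2nd step under stress, and its share in these counts was not tested. Of the DoGs called higher in the 2nd step, 1663 were not called in the 1st step, and for 1595 of these the difference itself was called. RAB3A had 0.02 and 0.01 FPKM in control and 0.12 in both stress libraries of the 1st step, so that its rise was 4.52 ± 0.11 larger on the log2 scale in the 2nd step. SCIMP and TNRC6B were the only DoGs called in opposite directions. SCIMP, a membrane adaptor of immune cells, had 0.31 and 0.32 FPKM in control and 0.93 and 0.98 under stress in the 2nd step, against 0.44 and 0.46 in control and 0.18 and 0.16 under stress in the 1st step. The longest listed region of SCIMP holds 1 other gene on its strand. TNRC6B, which acts in miRNA silencing, went from 0.57 and 0.45 to 1.12 in both in the 2nd step and from 0.24 and 0.23 to 0.07 and 0.05 in the 1st step. Centring reversed the balance of these differences, to 291 higher and 703 lower.

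Against hiAGPC, a single heated extraction that recovers aqueous-phase and interphase RNA together, far fewer DoGs differed by the fold threshold. In hiAGPC itself 70.2% of the DoGs were called higher and 9.14% lower. The choice of DoGs and regions leans toward the 2nd step under stress in this comparison too. The signed log2 fold change was called higher in the 2nd-step fraction for 175 DoGs (5.58%) and lower for 36 (1.15%), and centring gave 28 and 121. By the adjusted p-value alone, with no fold threshold, 1401 were called higher and 172 lower. The genes with the highest differences were H4C4, H4C7 and H4C11, which encode histone H4. H4C4 had 0.03 FPKM in both 2nd-step control libraries and 1.98 and 1.84 in the hiAGPC control libraries, while under stress it had 4.39 and 4.48 in the 2nd step and 5.16 and 5.18 in hiAGPC. The 1st-step control libraries had 4.10 and 3.12 FPKM. The stress levels of H4C4 thus lay close together in the 3 preparations, and the control levels set them apart. H4C7 and H4C11 showed the same, with control levels that differed from hiAGPC by -2.44 and -2.0 on the log2 scale and stress levels that differed by -0.06 and -0.10. The regions of these 3 DoGs hold other histone genes on the same strand (H1-2, H2BC4 and H1-6 for H4C4, H1-3 for H4C7, H2BC15 and H2AC16 for H4C11), so messages of those genes cannot be told apart from readthrough. Over the 175 DoGs with a higher log2 fold change, the stress levels differed from hiAGPC by a median of 0.98 and the control levels by -0.16.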

How the data were processed

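RNA from HEK293 cells was analysed in 4 SERIPH 2nd-step libraries, with 12 further libraries of the series entering the model so that all 8 groups share 1 estimate of the spread. The authors trimmed reads (fastp 0.25.0), discarded ribosomal ones (Bowtie2 2.5.4), mapped the others to GRCh38 (STAR 2.7.11b), kept unique alignments and called DoGs per library with ARTDeco on GENCODE v49. The deposited FPKM values refer to 1 region of each gene and are rounded to 0.01, and the reads used for scaling are not given in the sources used here. The deposited region lists were used as coordinates, and the longest region per gene and library was kept. The methods give only a nominal range of depth, so the depth of each library is unknown and no counting error is given. The 2nd-step libraries were made from less RNA than the 1st-step ones.

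FPKM was compared with limma 3.58.1 in R 4.3.3 on log2(FPKM + 0.1) with an intensity trend and Benjamini-Hochberg adjustment over 3139 DoGs, of which 4 are second regions of a gene. The authors used DESeq2 on counts, which FPKM does not allow. Numbers and lengths were compared by two-sided exact permutation. Genes were placed with GENCODE v44, an older release, which held 3495 of the 3505 genes. Other tools were Python 3.11.15, pandas 2.3.3, scipy 1.17.1 and matplotlib 3.10.9. The model was tested on simulated data. The members and gene lists were chosen with earlier results of these data known. The DoGs named are the 5 with the highest and lowest fold change among called DoGs listed in both libraries of the higher condition, the 3 with the highest FPKM per condition among DoGs listed in both its libraries, the 5 longest, the 3 with the largest and smallest length ratio, examples from the 2 highest and 2 lowest of each list, and the 3 with the largest and smallest difference of induction. SCIMP and TNRC6B were added after their values were seen. Alternatives were other pseudocounts, filters, scalings, models, listing rules and minimum lengths, and either replicate left out. The choice of DoGs listed in all 4 libraries was made after seeing the data. The tables hold DoGs alone, so cell type markers and gene expression were not analysed here, and 1 locus is not reported here.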

Additional observations from a re-analysis of the deposited data

Results flagged for a closer look

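The signed log2 fold change under stress differed between preparations by the interaction test in limma. In the 2nd step it was higher than in the SERIPH 1st-step fraction for 2288 DoGs and lower for 132, and it was higher than in hiAGPC for 175 and lower for 36. The positive differences from the 1st step were led by H4C4 (4.96 on the log2 scale), RAB3A (4.52) and ADAMTSL4-AS2 (4.42), and the negative ones by HCCS-DT (-3.85), AGAP9 (-2.93) and NEIL3 (-2.81), which fell further in the 2nd step. Against hiAGPC the positive ones were led by H4C4 (3.73), H4C7 (2.38) and H4C11 (1.89), and the negative ones by NEK6 (-1.76), ZFP14 (-1.65) and BMS1P1 (-1.64). The 2 sets of differences share the 2nd-step libraries, and many of the DoGs tested were listed in these libraries only under stress. For HCCS-DT the stress levels were close in both steps, with a log2 difference of -0.35, and the control level was higher in the 2nd step by 3.50. AGAP9 and BMS1P1 have close copies in the genome and are uncertain.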

How the results depend on the processing

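A pseudocount of 1 in place of 0.1 left 811 DoGs called higher and 42 lower (median log2 fold change 0.74), and left a signed log2 fold change that was larger than in the 1st step for 512 DoGs and smaller for 12, and 1 and 0 against hiAGPC (smaller includes deeper falls). A pseudocount of 0.01 gave a median of 3.24 and 64 smaller differences against hiAGPC. Centring each library on its median DoG gave 581 higher and 886 lower, a median of 0.13, 291 larger and 703 smaller differences against the 1st step, and 28 and 121 against hiAGPC. With the adjusted p-value alone, 250 smaller differences were called against the 1st step, and 1401 larger and 172 smaller against hiAGPC. DoGs whose region holds no other gene on the same strand gave 1335 higher of 1838 tested, a median of 2.28, 1293 larger and 82 smaller differences against the 1st step, and 75 and 21 against hiAGPC. In the lists this restriction gave 994 reproducible stress genes, a ratio of genes per library of 2.85 and a length ratio of 2.20. Longer regions are more likely to hold a gene, so the restriction itself favours short ones. DoGs listed in both libraries of at least 1 condition had a median of 2.61. The 572 DoGs listed in both control libraries gave 136 higher and a median of -0.90, and the 220 DoGs listed in all 4 libraries 133 higher, 9 lower and a median of 1.45. A minimum length of 20 kb gave a ratio of genes per library of 8.01, 186 reproducible control genes and a length ratio of 3.13, and counting genes listed in both replicates gave a ratio of 3.41.

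Leaving out either replicate gave 2339 to 2345 DoGs called higher, 353 to 362 lower and a median of 2.36 to 2.38. It gave 2243 to 2297 larger and 143 to 153 smaller differences against the 1st step, and 151 to 170 and 26 to 41 against hiAGPC. The ratio of genes per library ran from 3.46 to 3.67 and the length ratio from 3.0 to 3.75, over the larger sets of genes that single libraries share. The lone library left in a group was assumed to vary like the other groups. The same-numbered libraries of control and stress did not deviate together (correlation of deviations -0.04 between the 2 conditions). Within a condition, the 2 SERIPH steps are fractions of the same lysate, and the paper describes the other extractions as run on the same samples. Same-numbered preparations may thus be paired there, and the main model had no block for this. A replicate block gave 2343 higher and 366 lower, and within condition 2288, 132, 175 and 36 differences. These equal the counts without the block because every DoG past the fold threshold in the comparison of conditions passed the adjusted p-value in each fit, as did nearly all in each difference of induction, and the same holds without the intensity trend and for the 4 libraries alone, so the equal counts carry no further information on stability.

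Of 903 values of 84 named DoGs under these alternatives, 866 kept their direction and side of the threshold, 26 lost the call, 5 gained it and 6 reversed. Centring turned HSF1 to -1.61, NCBP1 to -2.14, H4C16 to -1.20, KMT5B to -1.84 and MIR3936HG to -0.68, and NCBP1 was 0.35 without replicate 1 and -0.13 without replicate 2. FPKM is rounded to 0.01 and the depth is unknown, so levels near 0 in control are poorly resolved. With 2 libraries per condition, the exact permutation test could not pass a threshold. The cause of each shift was not tested beyond the construction of the alternative.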
